A study of Mus musculus with 12 samples.

Results

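The interferon regulatory factors (IRFs) are a family of transcription factors that share a DNA-binding domain with conserved tryptophans and bind GAAA repeats in the control regions of interferon and immune genes. Of this family, 7 genes (Irf1, Irf2, Irf3, Irf4, Irf5, Irf7 and Irf9) were selected by name from the 25919 gene rows of a count table, and 6 of the 7 had enough counts to be tested. They were compared between libraries labelled CD40 at day 2 (4 libraries) and Kupffer cells at day 0 (2 libraries), both from livers of C57BL/6 mice aged 7 weeks. CD40 is a receptor of antigen-presenting cells, and Kupffer cells are the resident macrophages of the liver. The labels give no treatment, allele, sort gate or event from which the days are counted. Nor do they tie libraries to animals, so p-values here reflect only library-to-library spread, possibly technical. Cell label and day differ together and cannot be told apart. Total counts were 725683 to 2271228 in CD40 day 2 and 688498 and 1612435 in Kupffer day 0. Letters a to d name the libraries of a group and pair nothing.

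In the cell, IRFs act at successive steps of the interferon response. Irf3 and Irf7 wait in the cytoplasm until kinases downstream of nucleic acid sensors phosphorylate them, and they then switch on type I interferon genes. Irf5 is activated through Toll-like receptors and Myd88 and drives inflammatory cytokines such as interleukin-12. Irf9 joins STAT proteins in the complex ISGF3, which carries the signal of the interferon receptor to target genes. Irf1 activates genes of the interferon gamma response, and Irf2 binds the same sites and often represses them. Irf4 works with partners such as Spi1 and Batf in lymphocytes, dendritic cells and alternatively activated macrophages.

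The stretches before the start sites of Irf5 and Irf7, the members that were higher in CD40 day 2, and of Irf1 and Irf2, which hold matches to interferon-related motifs, are shown 5′ to 3′. They come from RefSeq windows on GRCm38.p6 and stop where the GENCODE M21 gene begins. Capitals mark matches to the core of the interferon-stimulated response element (ISRE), which is GAAA, any 2 bases and GAAA, and to TTCNNNGAA, the GAS element bound by STAT dimers.
Irf5, chr6:29526375-29526624, plus strand: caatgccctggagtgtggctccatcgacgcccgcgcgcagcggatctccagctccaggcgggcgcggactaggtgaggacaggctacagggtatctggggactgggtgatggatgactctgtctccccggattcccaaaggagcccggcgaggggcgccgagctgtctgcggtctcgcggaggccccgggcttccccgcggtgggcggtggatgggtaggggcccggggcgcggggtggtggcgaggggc
Irf7, chr7:141266482-141266674, minus strand: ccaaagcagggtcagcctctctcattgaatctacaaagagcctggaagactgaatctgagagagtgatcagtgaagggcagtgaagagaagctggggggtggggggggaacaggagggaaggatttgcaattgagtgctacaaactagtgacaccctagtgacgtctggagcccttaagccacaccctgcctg
Irf1, chr11:53769764-53770013, plus strand: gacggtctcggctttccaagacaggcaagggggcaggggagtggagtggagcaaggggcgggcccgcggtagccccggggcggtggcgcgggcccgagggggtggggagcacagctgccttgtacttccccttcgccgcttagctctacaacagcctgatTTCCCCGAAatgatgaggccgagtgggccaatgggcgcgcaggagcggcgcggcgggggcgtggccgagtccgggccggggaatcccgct
Irf2, chr8:46739495-46739731, plus strand: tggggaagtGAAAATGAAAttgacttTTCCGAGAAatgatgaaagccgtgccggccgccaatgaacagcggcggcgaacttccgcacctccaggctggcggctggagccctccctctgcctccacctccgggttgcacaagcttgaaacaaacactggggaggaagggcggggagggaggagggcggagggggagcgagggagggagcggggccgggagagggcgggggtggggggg

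Both strands of windows from 250 bases before to 50 bases after the RefSeq start were searched, in 9 windows of the 7 genes. Irf1 had a GAS match, TTCCCCGAA, whose first base lay 90 bases before the start (chr11:53769924-53769932). Irf2 had an ISRE match, GAAAATGAAA, 241 bases before the start, and a GAS match, TTCCGAGAA, 224 bases before it. The other 5 genes had neither motif in their windows. For Irf9, both windows (starts at 55603985 and 55604579) lie inside the GENCODE gene, which begins at 55603571. The bases before that GENCODE start were thus not searched for Irf9. Of all 32851 promoter windows, 3.44% held the ISRE core and 8.30% the GAS element. The members with matches were Irf1 and Irf2, neither of which passed the test of a change between the groups. The TATA box core TATAAA lay 29 bases before the start of Irf7, in a stretch not shown, and 26 bases before that of Irf4. It was in 13.6% of all windows. Irf5 had no TATA match, but its window held 5 matches to the GC box core GGGCGG, and its GC content was 74.7%, against 55.0% for Irf7 and a median of 52.7% over all windows. The uncalled members Irf1 and Irf2 were also rich in GC. The 2 windows of Irf1 had 69.3% and 75.0%, with 2 GC box matches in each, and that of Irf2 had 62.7% with 3. Every member but Irf7 had a GC box match. The GC box core was in 35.7% of all windows. The motifs do not overlap each other in these windows, apart from neighbouring GC boxes of Irf5. A match is a description of the letters and not a bound site.

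Irf5 and Irf7 were higher in CD40 day 2, Irf3 was lower, and Irf1, Irf2 and Irf9 did not pass the test. Levels are CPM (counts scaled to a common library size with TMM), and the test was edgeR's quasi-likelihood test with Benjamini-Hochberg adjustment over the 9852 genes tested, at an adjusted p of 0.05. The count of 3 called among 6 tested members lay near the background, since 53.4% of all genes tested were called (23.2% higher and 30.2% lower). The groups' libraries did not overlap for the same 3 members and for 66.6% of all genes tested. The family as a whole therefore did not stand apart by its number of calls. Its members differed from each other in direction and in size. In these bulk libraries, fewer cells of a type and less RNA per cell cannot be told apart.

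Irf5, the Toll-like receptor member (chromosome 6, 29526625 to 29541871), was at 685, 655, 709.6 and 697 CPM in CD40 day 2 and at 92.4 and 85.0 CPM in Kupffer day 0. All 4 CD40 libraries stood far above both Kupffer libraries. Irf5 averaged 687 ± 23.4 CPM over the 4 CD40 libraries and 88.7 ± 5.29 CPM over the 2 Kupffer libraries (± is the SD here and for other CPM means). By edgeR this is a log2 fold change of 2.95 ± 0.17 (SE; adjusted p = 1.28e-06), or 7.71-fold. Within CD40 day 2, Irf5 had the smallest spread of the 7 members, with a coefficient of variation of 3.40%. The 3′ end of Irf5 overlaps that of Tnpo3, an import receptor gene on the opposite strand, over 1045 bases. Tnpo3 was at 68.9 ± 26.4 CPM in CD40 day 2 and 76.9 ± 16.2 CPM in Kupffer day 0 and did not pass edgeR's test (adjusted p = 0.71).

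Irf7, the interferon-inducible virus-response member (chromosome 7, 141262706 to 141266481), was at 2164, 2286, 1689 and 1520.2 CPM in CD40 day 2 and at 291 and 269 CPM in Kupffer day 0. The groups did not overlap, and libraries a and b were the highest of the CD40 group. Irf7 averaged 1915 ± 368 CPM in the CD40 libraries and 279.9 ± 15.8 CPM in the Kupffer libraries. The log2 fold change was 2.77 ± 0.23 (SE; edgeR adjusted p = 8.52e-06), or 6.83-fold. Of the 9852 genes tested, Irf5 ranked 316 and Irf7 ranked 362 by fold change from the highest, both above the 95th percentile of all genes (2.46 on the log2 scale). Their 95% intervals overlapped, from 2.56 to 3.33 for Irf5 and from 2.26 to 3.28 for Irf7, and the difference between the 2 changes was not tested.

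Irf3, the constitutive partner of Irf7 in virus sensing (chromosome 7, 44997648 to 45002848), went the other way. It was at 74.6, 82.0, 60.996 and 67.3 CPM in CD40 day 2 and at 149.9 and 113 CPM in Kupffer day 0. Every CD40 library was below both Kupffer libraries, which themselves differed 1.33-fold. Irf3 averaged 71.2 ± 9.11 CPM in the CD40 libraries and 131 ± 26.2 CPM in the Kupffer libraries, a log2 fold change of -0.91 ± 0.19 (SE; edgeR adjusted p = 0.00308). Without Kupffer day 0 library a the call was lost (-0.68, edgeR adjusted p = 0.076, range over the alternatives 0.000643 to 0.076). The 5′ end of Irf3 overlaps Bcl2l12 on the opposite strand over 1065 bases, and Bcl2l12 did not pass the test (log2 fold change -0.09, edgeR adjusted p = 0.791).

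**Figure D1:**
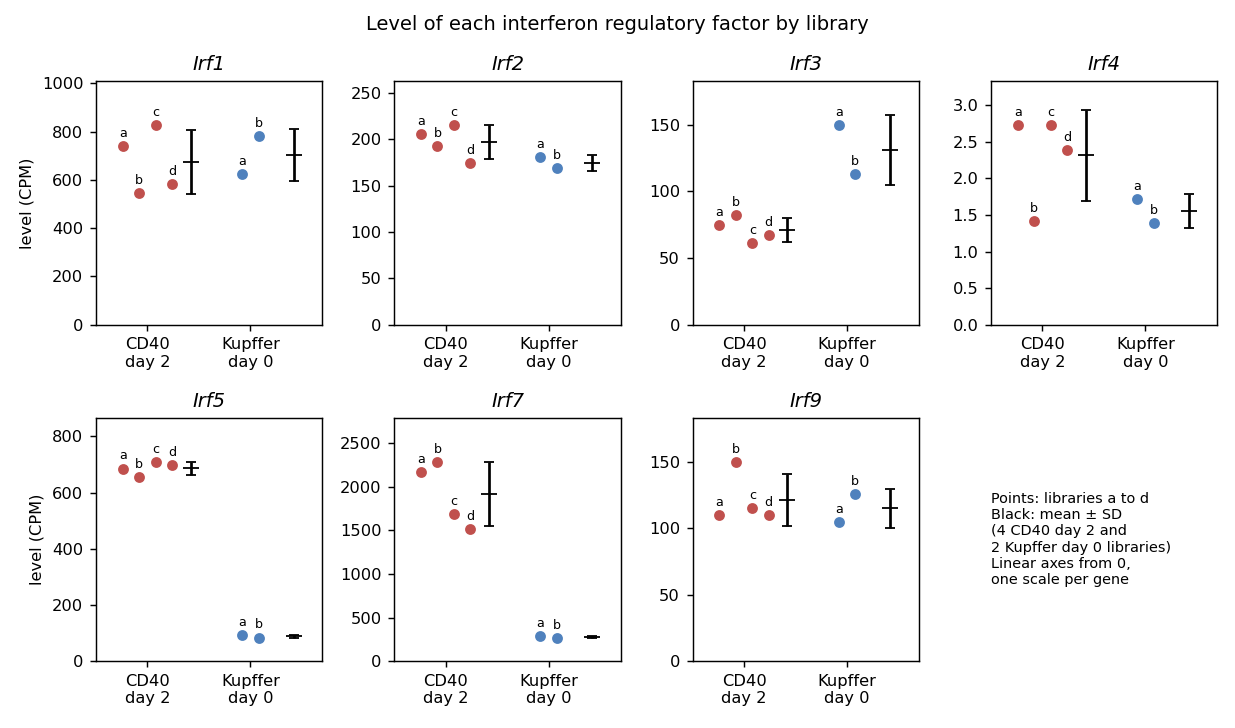
Level of each member in CPM by library, on linear axes from 0 with a scale of its own for each gene. Red points are the 4 CD40 day 2 libraries, blue points the 2 Kupffer day 0 libraries, letters name the libraries, and black marks give the mean ± SD. Irf5 and Irf7 are higher and Irf3 is lower in CD40 day 2 with no overlap, whereas the points of Irf1, Irf2, Irf4 and Irf9 overlap.

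Irf1, the activator of interferon gamma response genes (chromosome 11, 53770014 to 53778374), was at 740.0, 546, 827 and 583 CPM in CD40 day 2 and at 626 and 779.9 CPM in Kupffer day 0. The Kupffer values lay within the range of the CD40 values. Irf1 averaged 674 ± 132 CPM in the CD40 libraries and 703 ± 109 CPM in the Kupffer libraries (log2 fold change -0.06 ± 0.2 SE, edgeR adjusted p = 0.838). The 95% interval of the log2 fold change, from -0.51 to 0.40, bounds the change that these libraries allow.

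Irf2, the antagonist of Irf1 (chromosome 8, 46739732 to 46847458), was at 206, 192, 215 and 174 CPM in CD40 day 2 and at 180.3 and 169 CPM in Kupffer day 0. Its log2 fold change was 0.17 ± 0.16 (SE; edgeR adjusted p = 0.397), with a 95% interval from -0.19 to 0.54. Irf9, the DNA-binding part of ISGF3 (chromosome 14, 55603571 to 55610030), was at 110.1, 149.95, 115 and 109.6 CPM in CD40 day 2 and at 104 and 125 CPM in Kupffer day 0. Both genes overlapped between the groups, and library b stood highest for Irf9. The log2 fold change of Irf9 was 0.08 ± 0.2 (SE; edgeR adjusted p = 0.767), with a 95% interval from -0.36 to 0.51. The sign of Irf1 and Irf9 changed with the scaling or with the libraries used, so no direction can be given for either. The start of Irf9 overlaps the end of Rnf31 on the same strand over 123 bases, and Rnf31 was at 43.6 ± 9.52 CPM in CD40 day 2 and 27.1 ± 1.02 CPM in Kupffer day 0 (edgeR adjusted p = 0.0595).

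Irf4, the lymphoid and dendritic cell member (chromosome 13, 30749226 to 30766976), was close to the limit of detection. It held 3, 1, 6 and 4 counts in CD40 day 2 libraries a to d and 3 and 1 counts in Kupffer day 0. Summed, these are 14 counts against 4, and the ratio per total count was 1.35 with an exact 95% interval from 0.425 to 5.64, which covers counting error only. Irf4 was not tested, and a difference was not detectable at this depth. Outside the 7, Irf8, a myeloid lineage factor, was at 481, 727, 527 and 463 CPM in CD40 day 2 and at 254 and 226 CPM in Kupffer day 0 (log2 fold change 1.19 ± 0.22 SE, edgeR adjusted p = 0.00126).

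**Figure D2:**
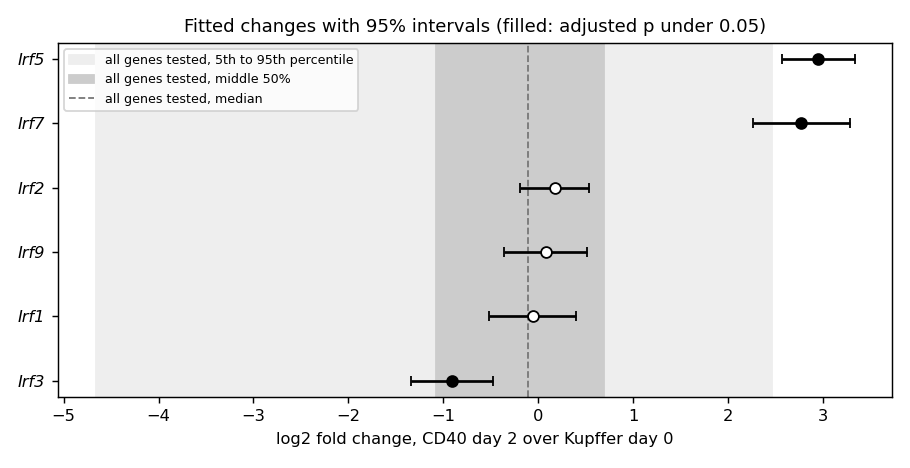
Fitted log2 fold change of CD40 day 2 over Kupffer day 0 for the 6 members tested (points) with 95% intervals (bars); filled points passed an adjusted p of 0.05. The grey bands show the middle 50% and the 5th to 95th percentile of all genes tested. The points of Irf5 and Irf7 lie to the right of both bands (the interval of Irf7 reaches into the outer one), and the other 4 members have their point inside the middle band.

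The make-up of the family's counts was compared within each library, where scaling plays no part. Reads come from the 3′ ends of transcripts, so these counts were not divided by transcript length, and the shares describe counts and not protein. In CD40 day 2, Irf7 made up 54.3%, 58.4%, 46.7% and 48.2% of the counts of the 7 genes, against 20.1% and 17.4% in Kupffer day 0. Irf5 made up 17.2%, 16.7%, 19.6% and 22.1% in CD40 day 2, against 6.39% and 5.51% in Kupffer day 0. Irf1 held 18.6%, 14.0%, 22.8% and 18.5% in CD40 day 2, against 43.3% and 50.6% in Kupffer day 0. Irf7 thus took the largest share in all 4 CD40 libraries, and Irf1 in both Kupffer libraries. Irf3 averaged 1.95 ± 0.21% in CD40 day 2 and 8.84 ± 2.16% in Kupffer day 0, and Irf2 and Irf9 also took smaller shares in CD40 day 2 (5.39 ± 0.448% against 11.7 ± 1.09%, and 3.31 ± 0.452% against 7.68 ± 0.638%). Since shares add up to the whole, those of Irf2, Irf9 and Irf1 move with the counts of Irf5 and Irf7. The summed level of the 7 genes was 3667 ± 377 CPM in the CD40 libraries and 1494 ± 67.9 CPM in the Kupffer libraries.

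**Figure D3:**
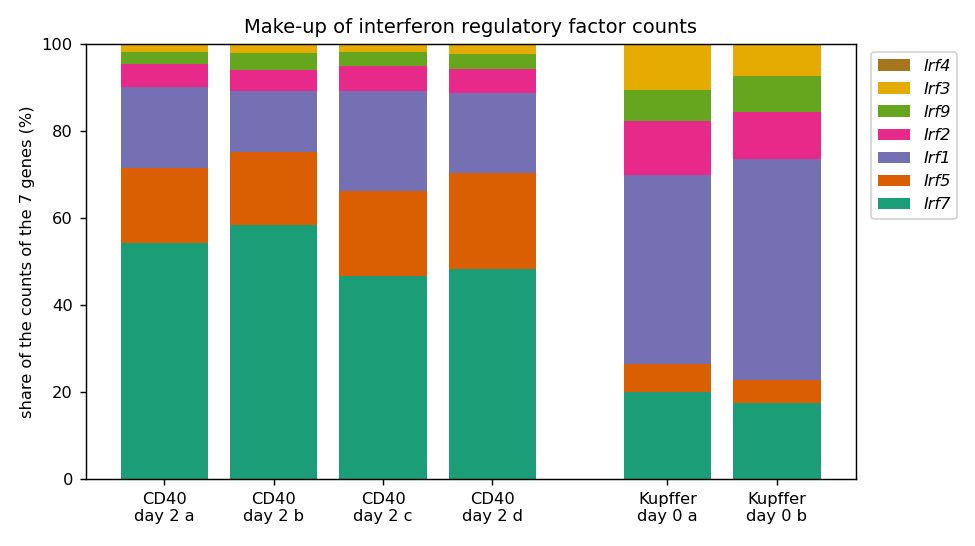
Share of each member in the summed counts of the 7 genes, per library, in percent (stacked bars from 0). Irf7 takes 46.7% to 58.4% in the 4 CD40 day 2 libraries and 17.4% to 20.1% in the 2 Kupffer day 0 libraries, where Irf1 takes 43.3% and 50.6%.

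Pairs of members with related roles were compared by the ratio of their counts within a library. For Irf7 over Irf3, the inducible and the constitutive virus-response factor, this ratio was 29.0, 27.9, 27.7 and 22.6 in CD40 day 2 and 1.94 and 2.38 in Kupffer day 0. For Irf5 over Irf4 it was 251, 463, 259.8 and 292 in CD40 day 2 and 53.7 and 61 in Kupffer day 0, resting on 1 to 6 counts of Irf4 per library. For Irf9 over Irf3 it was 1.48, 1.83, 1.89 and 1.63 in CD40 day 2 and 0.697 and 1.11 in Kupffer day 0. For Irf1 over Irf2, the activator and the repressor, it was 3.597, 2.84, 3.84 and 3.35 in CD40 day 2 and 3.47 and 4.63 in Kupffer day 0. The first 3 ratios did not overlap between the groups, and the ratio of Irf1 to Irf2 did. On the log2 scale with 0.5 added to each count, the means differed by 3.63 for Irf7 over Irf3, 2.54 for Irf5 over Irf4, 0.94 for Irf9 over Irf3 and -0.24 for Irf1 over Irf2. The exact permutation test of 4 against 2 libraries, two-sided on the difference of means, cannot give a p below 0.0667. This exact test gave p = 0.0667 (adjusted over the 4 ratios, 0.0889) for the first 3 and p = 0.4 for Irf1 over Irf2, so no ratio could pass 0.05. The difference for Irf9 over Irf3 was 0.61 without Kupffer day 0 library a and 1.28 without library b.

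**Figure D4:**
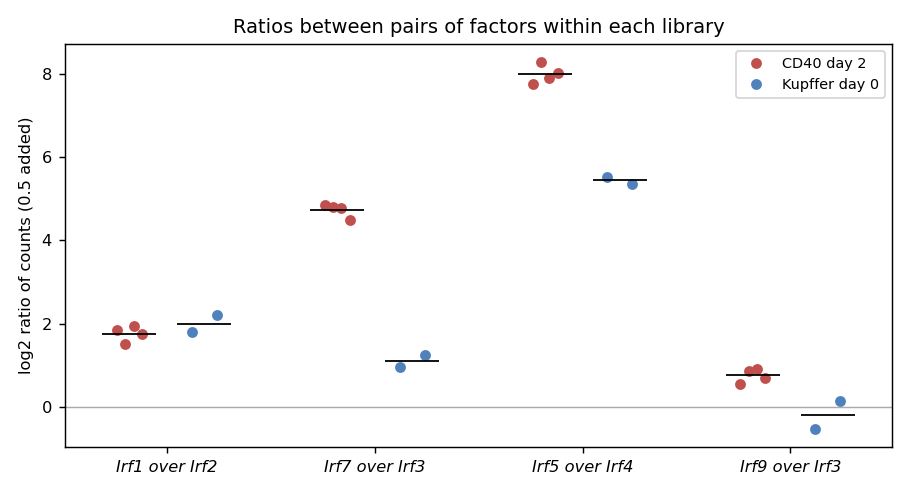
Log2 ratio of the counts of 2 members within each library (0.5 added to each count). Red points are CD40 day 2 libraries, blue points Kupffer day 0 libraries, and black lines the means. The 4 red points lie above the 2 blue points for Irf7 over Irf3, Irf5 over Irf4 and Irf9 over Irf3, and the points overlap for Irf1 over Irf2.

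The genes whose profile over the 6 libraries was most like that of a called member were taken from 5664 named genes of at least 20 CPM. Likeness was the root mean square difference between profiles of log2(CPM + 2), each centred on its own mean. For Irf5 these were Anxa4, an annexin (0.0795), Gbp5, a guanylate-binding protein (0.0846), and Pla2g16, a phospholipase (0.0894). For Irf7 they were Tspo, a mitochondrial outer membrane protein (0.0977), Vav1, a signalling protein of blood cells (0.101), and Ppa1, a pyrophosphatase (0.143). For Irf3 they were Ehmt1, a histone methyltransferase (0.068), the zinc finger protein gene Zfp148 (0.0946) and Tsen34, of the tRNA splicing endonuclease (0.104). With 2 groups of libraries, such profiles mostly restate the size of the difference between the groups.

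The genes that switch IRFs on were for the most part higher in CD40 day 2. Of 23 tested sensors, adaptors and kinases, 15 were higher and 2 lower by edgeR, with a median log2 fold change of 1.35, against -0.10 for all genes tested. Among all genes tested, 23.2% were called higher and 30.2% lower. Of the genes called higher, Ticam2 (3 and 2 counts in Kupffer day 0) passed the count filter through CD40 day 2 alone and could only be called higher. Tlr7, Ticam1 and Traf3, also higher, held 2 counts each in Kupffer day 0 library b and needed CD40 day 2 libraries to pass the filter. Myd88, the adaptor upstream of Irf5 and Irf7, was at 671 ± 38.9 CPM in CD40 day 2 and 168 ± 34.4 CPM in Kupffer day 0 (edgeR adjusted p = 1.73e-05). Ikbke, a kinase of Irf3 and Irf7, was at 105 ± 26.7 CPM in CD40 day 2 and 8.20 ± 0.225 CPM in Kupffer day 0 (edgeR adjusted p = 1.85e-05). Tank, a scaffold of that kinase complex, was at 112 ± 12.05 CPM in CD40 day 2 and 19.2 ± 0.39 CPM in Kupffer day 0 (edgeR adjusted p = 1.18e-05). The 2 that were lower, named after their values were seen, were Tlr3, a receptor for double-stranded RNA, and Mavs, the adaptor of cytosolic RNA sensing. Tlr3 passed the count filter through Kupffer day 0 alone and could only be called lower. Mavs was at 15.4 ± 2.79 CPM in CD40 day 2 and 30.8 ± 10.1 CPM in Kupffer day 0. Without Kupffer day 0 library b, 9 of these genes were higher, and without library a none was lower. With DESeq2, and with a minimum of 10 counts in 4 libraries, 1 was lower.

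Among 10 tested receptor, kinase and STAT genes of interferon signalling, 4 were higher and 3 lower, beside 23.2% and 30.2% of all genes tested. Stat2, a partner of Irf9 in ISGF3 named after its values were seen, was at 106 ± 7.85 CPM in CD40 day 2 and 67.1 ± 18.03 CPM in Kupffer day 0 (log2 fold change 0.63 ± 0.2 SE, edgeR adjusted p = 0.0247), beside a log2 fold change of 0.08 ± 0.2 SE for Irf9, and the difference between these changes was not tested. Tyk2, a kinase of the type I interferon receptor, was higher (53.7 ± 5.66 CPM in CD40 day 2 against 21.5 ± 2.86 CPM in Kupffer day 0), and Jak1, the other kinase of that receptor, was lower (229 ± 33.2 CPM in CD40 day 2 against 1040 ± 69.8 CPM in Kupffer day 0). The list median was 0.43. With library totals in place of TMM, 2 genes of this list were higher, and so with a minimum of 10 counts in 4 libraries, without CD40 day 2 library c or without Kupffer day 0 library b.

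Of 7 tested DNA-binding partners of Irf4, 4 were higher and 2 lower (median log2 fold change 2.29). Ikzf1, among those higher, held 24 and 4 counts in Kupffer day 0 and needed CD40 day 2 libraries to pass the count filter. The shares over all genes tested, for this list and the cofactors below, were 23.2% higher and 30.2% lower. Spi1, the myeloid factor PU.1, was at 342 ± 20.6 CPM in CD40 day 2 and 58.5 ± 3.95 CPM in Kupffer day 0 (edgeR adjusted p = 3.27e-06). Batf was at 153 ± 10.4 CPM in CD40 day 2 and 27.9 ± 5.99 CPM in Kupffer day 0, and Jun, an AP-1 subunit, at 322 ± 154 CPM in CD40 day 2 and 2717 ± 292 CPM in Kupffer day 0. Cofactors and regulators of IRF proteins mostly did not pass, with 1 of 8 higher and 2 lower (median 0.12). No gene of this list was higher with library totals, with a minimum of 10 counts in 4 libraries, without CD40 day 2 library a, without Kupffer day 0 library a or without Kupffer day 0 library b. The coactivator gene Crebbp was lower, at 31.8 ± 9.89 CPM in CD40 day 2 against 76.4 ± 8.17 CPM in Kupffer day 0, and so was Irf2bpl, of the Irf2-binding protein family, at 15.5 ± 4.24 CPM in CD40 day 2 against 30.3 ± 10.3 CPM in Kupffer day 0. With DESeq2, and without CD40 day 2 library c or d or Kupffer day 0 library b, 1 cofactor gene was lower. Without Kupffer day 0 library b, 1 partner gene was lower.

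The interferon genes themselves were scarce. Of 9 on the list, 3 are analysed here and none had enough counts to be tested. With no filter on low counts, 1 of them was called higher by edgeR. Ifnb1, named after its values were seen, held 3, 0, 31 and 0 counts in CD40 day 2 libraries a to d and 0 in both Kupffer day 0 libraries. Almost all of its counts were in library c, which among the CD40 libraries was highest for Irf1, Irf2 and Irf5 and not for Irf3, Irf7 or Irf9. Ifng held 2, 0, 6 and 1 counts in CD40 day 2 and 2 and 0 in Kupffer day 0.

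Known targets of the factors were counted from lists chosen by textbook role. Over all genes tested, 23.2% were called higher and 30.2% lower. Of 20 targets of Irf3, Irf7 and Irf9, 15 were higher and 0 lower (median log2 fold change 1.57). With library totals, and with a minimum of 10 counts in 4 libraries, 1 was lower. The lowest adjusted p-values were those of Zbp1 (1121 ± 91.7 CPM in CD40 day 2 against 75.7 ± 2.61 CPM in Kupffer day 0), Ccl5 and Isg15. Of 12 tested targets of Irf1, 10 were higher and 0 lower (median 2.88), although Irf1 itself did not pass the test. Examples are Il12b, the p40 chain of interleukin-12, at 55.6 ± 21.1 CPM in CD40 day 2 and 0.983 ± 0.579 CPM in Kupffer day 0 (2 counts in all), and Gbp2 and Cd274. Of 5 listed targets of Irf5, 2 were tested, and both, Il12b and Il6, were higher. Il6 was at 44.4 ± 22.5 CPM in CD40 day 2 and 11.2 ± 6.04 CPM in Kupffer day 0 (edgeR adjusted p = 0.0129). Not tested were Il12a (6, 1, 16 and 0 counts in CD40 day 2, 0 and 0 in Kupffer day 0) and Il23a (0, 0, 1 and 0 against 1 and 1). Il12b (1 count in each Kupffer library) and the Irf1 target Nos2 (2 and 1 counts) passed the count filter through CD40 day 2 alone. Such genes could only be called higher. Mx1, a target of Irf3, Irf7 and Irf9 (8 and 6 counts in Kupffer day 0), and the Irf4 target Prdm1 (11 and 9) were also higher. Both needed CD40 day 2 libraries to pass the count filter. With Kupffer day 0 library a left out, and likewise with library b left out, 1 target of Irf5 was called higher. Of 7 tested targets of Irf4, 3 were higher and 2 lower (median 0.10), and 1 was higher without Kupffer day 0 library a. Pdcd1lg2, a checkpoint ligand gene, was among those that were higher (23.5 ± 4.48 CPM in CD40 day 2, 2 counts in all in Kupffer day 0). Like Il12b, it could only be called higher. The mannose receptor gene Mrc1 and Klf4 were lower, with Klf4 at 26.4 ± 5.8 CPM in CD40 day 2 and 167 ± 21.4 CPM in Kupffer day 0. Many of these targets answer to several IRFs and to STATs, and the counts do not assign them to a factor.

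**Figure D5:**
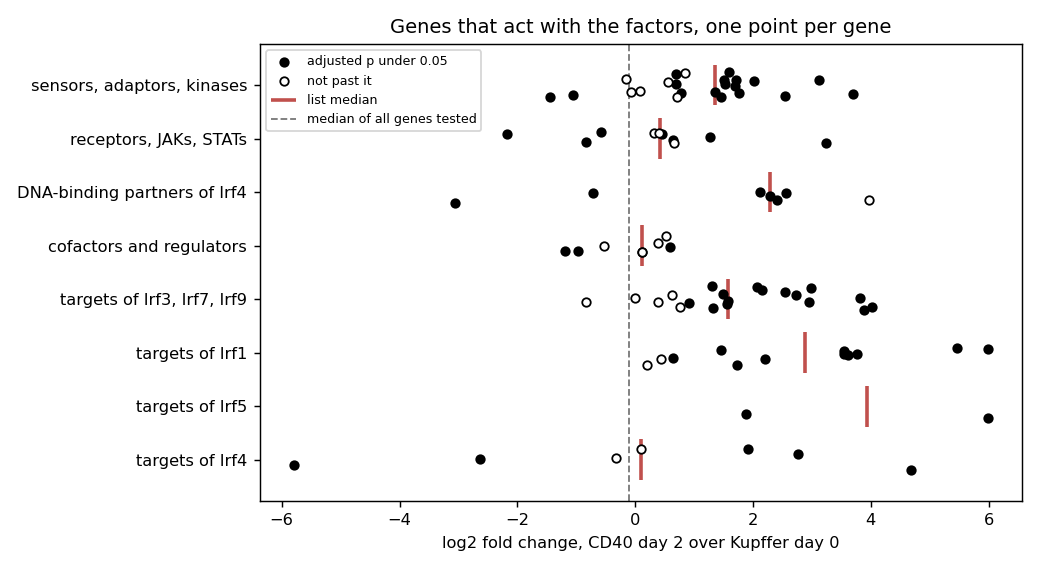
Log2 fold change of CD40 day 2 over Kupffer day 0 for tested genes of 8 lists around the IRFs, with points for genes (filled past an adjusted p of 0.05), red bars for list medians and a dashed line for the median of all genes tested, -0.10. The targets of Irf3, Irf7 and Irf9 and those of Irf1 hold no lower call, and the other lists but that of Irf5 hold calls on both sides.

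Markers of other cells differed between the groups beside every result above. The marker counts below stand beside 23.2% of all genes tested called higher and 30.2% called lower. Genes of liver endothelial cells were lower in 10 of 10 cases and took 0.0393% to 0.0795% of the counts in CD40 day 2, against 1.59% and 1.63% in Kupffer day 0. Kupffer cell markers took 0.0781% to 0.299% in CD40 day 2, against 0.601% and 0.638% in Kupffer day 0, with 7 of 10 lower. Most of that share in CD40 day 2 came from the complement genes C1qa, C1qb and C1qc, and C1qb averaged 1320.2 ± 655 CPM in CD40 day 2 and 1322 ± 116 CPM in Kupffer day 0. Clec4f, a lectin gene of Kupffer cells, was at 17.2 ± 3.61 CPM in CD40 day 2 against 1073 ± 74.3 CPM in Kupffer day 0, and Vsig4, a complement receptor gene, at 3.17 ± 2.62 CPM in CD40 day 2 against 376 ± 51.2 CPM in Kupffer day 0 (both named after their values were seen). Stellate cell and hepatocyte markers were lower in 6 of 6 and 5 of 5 tested cases. Of these, Colec11, Reln, Lrat, Col3a1, Pdgfrb, Cyp3a11 and Apoc3 passed the count filter through Kupffer day 0 alone. So did the Kupffer cell markers Vsig4 and Folr2. Such genes could only be called lower. Apoa1 and the endothelial gene Lyve1 also needed Kupffer day 0 libraries to pass the filter. Col1a1 was at 0 in CD40 day 2 and held 3 and 3 counts in Kupffer day 0, and it was not tested. Classical monocyte markers were higher in 6 of 7 cases and took 1.61% to 2.18% of the counts in CD40 day 2, against 0.145% and 0.170% in Kupffer day 0. Their part in the changes of Irf3, Irf5 and Irf7 was not tested. Markers of plasmacytoid dendritic cells, which express much Irf7, took 0.00321%, 0.00744%, 0.000969% and 0.000507% of the counts in CD40 day 2, against 0.000868% and 0.000726% in Kupffer day 0, and 0 of 1 tested was called. Those of conventional dendritic cells took 0.0666%, 0.117%, 0.0573% and 0.0560% in CD40 day 2, against 0.0148% and 0.0187% in Kupffer day 0. Most of that share in CD40 day 2 came from Naaa, with 589, 455, 1116 and 865 counts, against 49 and 17 in Kupffer day 0. Of 7 tested, Naaa and Itgax were higher, Zbtb46 was lower, and Flt3, Xcr1, Clec9a and Ccr7 did not pass. Itgax (5 and 6 counts in Kupffer day 0) needed CD40 day 2 libraries to pass the count filter. The plasmacytoid and the conventional list were both highest in library b and then in a, as was Irf7. The plasmacytoid list rests on few counts, and Spib held 21, 32, 7 and 2 in CD40 day 2 libraries a to d. Siglech (1, 2, 3 and 0 counts) and Cox6a2 (2, 2, 2 and 4 counts) did not follow that order. The part of dendritic cells in the level of Irf7 was not tested. Of 6 B cell and plasma cell markers, cells that use Irf4, Cd79a was at 0 in CD40 day 2, against 1 count in Kupffer day 0, and Ms4a1 was at 0 in Kupffer day 0. Of 2 tested, 1 was lower, Jchain, with 2, 3, 15 and 14 counts in CD40 day 2 against 6 and 101 counts in Kupffer day 0, so most Kupffer counts lie in library b, and the groups overlap in CPM. Of the 2 T and NK cell markers and 6 neutrophil markers tested, 0 were called by edgeR.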

How the data were processed

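Poly(A) RNA was read in bulk from its 3′ end with sample barcodes and unique molecular identifiers, per the labels' protocol. The authors deposited raw counts per gene symbol for 12 libraries. The submitters' processing notes name GRCm38.p6 and DESeq2 1.22.2. No source used here names an aligner or counter, says whether strand was used, or says whether reads or identifiers were counted. Columns are named by group alone. Values of 6 libraries (Kupffer day 7, Ly6C CD40-negative day 2) were left out, since they seem sorted apart from the names: library a of each has 1 step up along the table, whose rows run in falling order of Kupffer day 0 a (0 steps up), while Kupffer day 0 b has 7828. Counts of the other 6 libraries were tested with edgeR 4.0.16 (R 4.3.3, TMM, filterByExpr defaults, no block, two-sided), a fit checked on simulated counts. The simulation changed few genes, as many up as down. It therefore does not check the scaling of these data, where 53.4% of genes tested were called. CPM are scaled to the TMM-adjusted total of the genes tested, and the SE was taken as the size of the fitted log2 change divided by the root of F. Coordinates are from GENCODE M21 and promoter windows from RefSeq, which matched 7 of 7 members. The members and lists were chosen with earlier results of these data known. Named beside the members were the called genes of each list with the lowest adjusted p (up to 3) and the 3 genes most like each called member. The TATA and GC box motifs were added after the data were seen. Some genes that this rule would name are not reported here.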

Additional observations from a re-analysis of the deposited data

Results flagged for a closer look

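Irf9 in CD40 day 2 library b, at 149.95 CPM, lay apart from the other 3 CD40 libraries (109.6 to 115 CPM), with a gap of 0.862 of the group's range, above Dixon's critical value for 4 samples. Chance flags about 1 in 20 groups, and 18 sets of values were looked at. Library b also had the highest share of conventional dendritic cell markers (0.117%, against 0.0560% to 0.0666% in the other CD40 libraries) and the lowest level of C1qb (485 CPM, against 1332 to 2087 CPM) and of Chil3 (147 CPM, against 812 to 927 CPM). Their part in the value of Irf9 was not tested.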

How the results depend on the processing

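Irf5 and Irf7 stayed higher and called in all 11 alternatives (other scalings and filters, DESeq2 1.42.0, each library left out), with log2 fold changes of 2.78 to 3.03 and 2.61 to 2.86. Irf2 stayed uncalled and positive (0.0078 to 0.25). Irf3 kept its direction (-1.08 to -0.68), and 0 to 1 members were called lower when a library was left out. Leaving out a library gave -0.213 to 0.11 for Irf1 and -0.061 to 0.206 for Irf9. Irf1 turned positive without CD40 day 2 library b (0.097), CD40 day 2 library d (0.0042) or Kupffer day 0 library b (0.11). Irf9 turned negative with library totals (-0.085), with a minimum of 10 counts in 4 libraries (-0.053) and without Kupffer day 0 library a (-0.061); none of these was called, and the cause was not tested. Leaving out a library gave 1406 to 2551 genes higher and 1800 to 2963 lower; fewer libraries enter those fits. Library totals moved the median of all genes to -0.27 and gave 1883 genes higher and 3361 lower, against 2288 and 2974 with TMM. The pair ratios kept their sign when 1 was added to each count and without each library. No paired analysis was possible because the columns carry no replicate number. Depth limits Irf4 above all, with 1 to 6 counts per library.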
